A study of Homo sapiens with 3 samples.

Results

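The genes described here are 40 human genes of DNA replication and S phase, taken by symbol from 58243 gene rows; each symbol matched 1 row. The rule names symbols and sets no threshold on a value, but the list was drawn up with earlier results of these data known. They were sorted by role into 8 groups: licensing of replication origins (10 genes), activation of the replicative helicase (6), the sliding clamp and its loader (5), polymerases and primase (7), joining of Okazaki fragments (2), nucleotide synthesis (5), handling of histone mRNA and DNA methylation (2) and regulators of S phase entry (3). RNA was sequenced from cells labelled LoVo, a line from a human colorectal carcinoma, which carry a Tet-On short hairpin RNA against HRD1. HRD1, gene symbol SYVN1, is a ubiquitin ligase of the endoplasmic reticulum membrane. The cells had been kept in doxycycline at 1 µg/ml for 0, 3 or 5 days, in medium with fetal bovine serum, and each time is represented by 1 library. All 3 libraries come from cells with the same inducible hairpin, so that loss of HRD1, doxycycline itself and days in culture cannot be told apart.

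With 1 library per time, no difference below has a replicate check and no p-value is given. Each ratio carries a 95% exact interval that covers counting error only, and the spread between cultures is unknown. The labels mention no molecular identifiers, so copies of 1 molecule may be counted as separate reads. The intervals may then be too narrow even for counting error. Sequencing gave 21308785 gene reads at day 0, 22068686 at day 3 and 25754188 at day 5. SYVN1 had 1212, 650 and 709 reads, or 56.1, 30.4 and 27.0 normalised reads in CPM (reads scaled to library size), so the hairpin's target was lower at both later times. The labelled epithelial identity was only partly seen: the keratins KRT8 and KRT18 had 465 and 728 TPM (transcript abundance scaled for length and depth) at day 0, whereas the colonic factor CDX2 had 0 reads in every library, EPCAM had 17, 14 and 19 reads, CDH1 had 3, 2 and 10, and the mesenchymal filament gene VIM had 4016 TPM at day 0. A list of 9 liver and blood genes summed to 0.185, 1.22 and 19.3 CPM at day 0, day 3 and day 5, with 6, 4 and 0 of them at 0 reads; their part in the results was not tested.

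Replication starts at origins that are licensed in G1, when the origin recognition complex, CDC6 and CDT1 load the ring-shaped MCM2-7 helicase onto DNA. At S phase entry, cyclin E with its kinase and the activation factors MCM10, CDC45 and GINS help turn this ring into an active helicase. Primase and the replicative polymerases copy the strands on the PCNA clamp, and ribonucleotide reductase and thymidylate synthesis supply the nucleotides. Many of these genes are transcribed by E2F factors once the retinoblastoma protein is phosphorylated, which makes their summed RNA a common measure of how many cells in a culture are cycling.

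Many promoters of these genes hold a short sequence that the choice of genes did not use. A search of RefSeq promoter windows (GRCh38.p14, 250 bases before to 50 after the start) for 4 spellings of an E2F-type site, TTTCCCGC, TTTCGCGC, TTTGCCGC and TTTGGCGC, on both strands, found at least 1 in 19 of the 35 genes with a window, or 54.3%. The share was 3.33% of all 27305 promoters (908), and 5.62% (530) of the 9428 promoters whose genes averaged 50 reads or more here. Other S phase genes, a second list described below, held one in 11 of 46 windows (23.9%). Genes of G2 and mitosis held one in 2 of 19 (10.5%). MCM4, MCM5, GINS4, POLD3 and CCNE2 had no window. A match here is a match of letters, not a binding site. The spellings overlap when a site reads on both strands, as TTTCGCGCGAAA does. Licensing genes held a site in 6 of 8 windows and polymerase and primase genes in 4 of 6, whereas nucleotide synthesis genes held one in 1 of 5. The stretches that follow show the licensing genes with the helicase subunits MCM2, MCM6 and MCM7 first, then the loaders CDC6 and CDT1, the clamp PCNA, the polymerase α subunit POLA2, TYMS as the single nucleotide synthesis gene with a site, and E2F1 itself. Each is written 5′ to 3′ on the gene's strand, with the matched bases in capitals.
MCM2 (chr3:127598402-127598431, + strand): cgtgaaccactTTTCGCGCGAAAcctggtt
MCM6 (chr2:135876496-135876555, − strand): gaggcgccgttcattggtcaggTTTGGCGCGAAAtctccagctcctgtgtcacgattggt
MCM7 (chr7:100101388-100101417, − strand): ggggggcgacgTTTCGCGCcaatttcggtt
CDC6 (chr17:40287875-40287904, + strand): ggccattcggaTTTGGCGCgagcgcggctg
CDT1 (chr16:88803728-88803787, + strand): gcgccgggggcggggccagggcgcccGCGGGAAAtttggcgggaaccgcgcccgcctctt
PCNA (chr20:5126648-5126707, − strand): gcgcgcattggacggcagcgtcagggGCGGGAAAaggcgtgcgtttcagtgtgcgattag
POLA2 (chr11:65261883-65261942, + strand): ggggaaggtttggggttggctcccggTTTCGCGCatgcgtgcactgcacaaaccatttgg
TYMS (chr18:657588-657647, + strand): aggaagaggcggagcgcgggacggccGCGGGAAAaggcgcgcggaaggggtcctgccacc
E2F1 (chr20:33686389-33686418, − strand): GCGGCAAAaaggaTTTGGCGCgtaaaagtg
In MCM2 the pair of overlapping matches begins 2 bases after the transcription start and in CDC6 the match begins 7 bases after it, while in PCNA it lies 59 bases and in TYMS 39 bases before the start. MCM6 held 4 matches in its window, 2 of them in the stretch shown, and MCM2, MCM3, MCM7 and E2F1 held 2 each.

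All 40 genes were transcribed at day 0 and remained so. Each had at least 50 reads in every library, 39 had at least 10 TPM in every library, and 18 had at least 100 TPM in every library. The TPM values follow the exon length given for each gene, which need not be that of the transcript present. Levels of different genes therefore compare only roughly. On this scale PCNA was the highest at 952, 955 and 805 TPM on days 0, 3 and 5, followed by the helicase subunit MCM7 at 801, 785 and 700 TPM. TYMS had 620, 579 and 490 TPM and TK1 had 539, 544 and 422 TPM. The lowest was cyclin E1, CCNE1, at 5.88, 6.52 and 5.70 TPM, and the next lowest was POLA2 at 16.02, 12.1 and 12.9 TPM. The 6 subunits of the MCM2-7 ring, which form a complex with 1 copy of each, did not have equal TPM values: at day 0 they lay between 135 TPM for MCM6 and 801 TPM for MCM7, with MCM5 at 151, MCM4 at 196, MCM2 at 247 and MCM3 at 420 TPM. MCM5 and MCM6, close in TPM, had 256 and 129 CPM at day 0, with exon lengths of 7338 and 4118 bases. The catalytic polymerase subunits POLD1, POLE and POLA1 had 118, 56.1 and 49.6 TPM at day 0, well under the clamp.

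**Figure D1:**
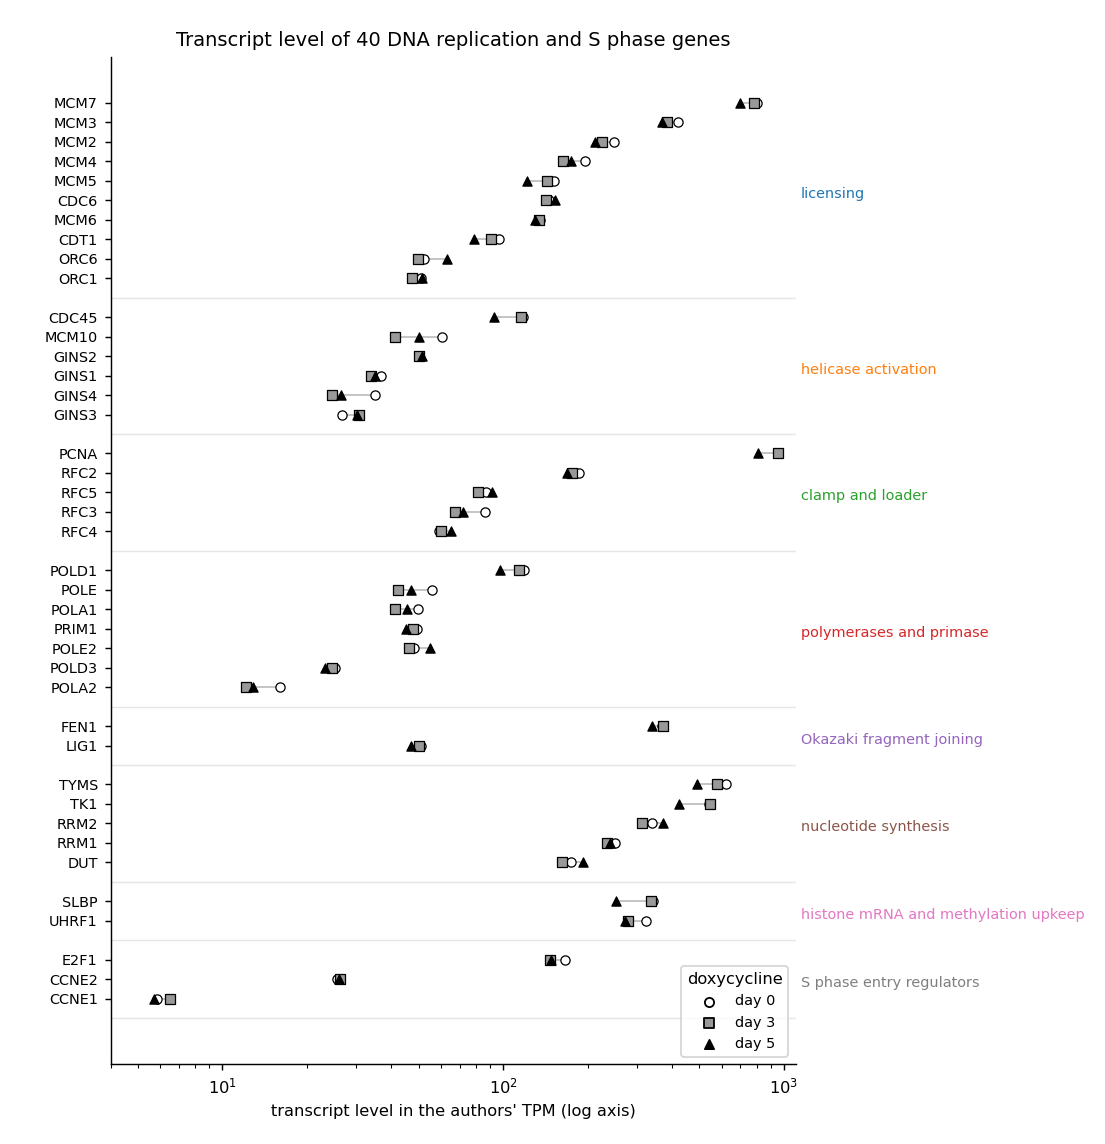
Transcript level of each of the 40 genes in the authors' TPM (horizontal log axis), by role group, with an open circle for day 0, a grey square for day 3 and a black triangle for day 5, 1 library each. PCNA and MCM7 stand at the right and CCNE1 at the left, and for most genes the 3 points lie close together compared with the distance between genes.

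Changes over time were small in every role group. In total gene reads, no gene of the 40 differed by 1.5-fold with an interval excluding 1 in any of the 3 comparisons, among the 12593 genes whose mean reached 50 reads; in uniquely placed reads GINS4 did, at a log2 ratio of -0.63 at both later times against day 0. Of all those genes, 1.29% were that much higher and 2.53% lower at day 3 against day 0, 1.76% higher and 1.28% lower at day 5 against day 0, and 2.29% higher and 0.961% lower at day 5 against day 3. A smaller mark, a log2 ratio of at least 0.32 in size with an interval excluding 1, was therefore used to call genes lower or higher. Within 0.32 of day 0 at both later times lay 35 of the 40. The same share of all genes is not given here, so this count does not set the 40 apart. The gene bodies of 10 of the 40 overlap another measured gene, 9 of them one on the opposite strand (TYMS with ENOSF1 and TYMSOS, CCNE2 with INTS8, RFC4 with EIF4A2), and as no source says that the counting used strand, reads of such pairs cannot be told apart. FEN1 overlaps FADS2 on its own strand. Ratios are of reads scaled to library size by TMM, with all genes centred near a log2 ratio of 0.

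At day 3 against day 0 the 40 genes had a median log2 ratio of 0.04, beside 0.01 for all genes, with 28 above 1 and 12 below, where 48.0% of all genes were below. This split turned with the scaling: 25 were below 1 with library totals (59.9% of all genes), 33 with the authors' TPM (65.9%), and 22 once trends with exon length and GC content were taken out (44.6%). Lower by this mark were 2 genes, MCM10 and GINS4, a share of 5.0% where 8.08% of all genes were so called; none was higher, where 6.27% of all genes were. With the trends removed RFC3 joined the lower pair, at -0.38, and 6.28% of all genes were so called. Just outside the mark, which is 0.322 to a further digit, lay POLA2 at -0.318 and GINS3 at 0.31. The interval lay above 1 for 11 genes and below 1 for 8, against 25.2% and 20.8% of all genes.

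At day 5 against day 0 the median was -0.12, beside 0.01 for all genes, and 29 of the 40 genes were below 1, or 72.5%, against 48.8% of all genes. The interval lay below 1 for 23 genes and above 1 for 7, where the shares of all genes were 22.4% and 22.8%. Lower by this mark were SLBP, GINS4, TK1 and TYMS, which is 10.0% of the 40 beside 5.15% of all genes, and none was higher beside 6.56%. The gene just inside the mark was TYMS at -0.324, and the nearest outside were CDC45 at -0.31 on the lower side and ORC6 at 0.26 on the higher side. With the trends removed, 4 genes were again lower, with PCNA at -0.38 in the place of TK1 at -0.27, beside 3.96% of all genes. Summed over the 40 genes, reads stood at 5748 CPM at day 5, against 6360 CPM at day 0, a log2 ratio of the sums of -0.15 (interval -0.16 to -0.14). In RNA from a whole culture, fewer cells in S phase and less of these mRNAs per cell cannot be told apart.

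At day 5 against day 3 the median was -0.11, beside 0.00 for all genes, and 29 of the 40 were again below 1, where 49.9% of all genes were. With library totals 23 were below 1 (37.5% of all genes), and with the authors' TPM 21 were (34.2%), with a median of -0.011. Lower by this mark were 7 genes, SLBP, TK1, CDC45, PCNA, TYMS, MCM5 and POLD1, or 17.5% beside 6.90% of all genes; none was higher beside 9.01%. With library totals, and likewise with TPM, 2 genes were lower, and the shares of all genes called under those scalings are not given here. After removal of the length and GC trends 2 of these, SLBP and PCNA, still passed, beside 3.04% of all genes. The 3 comparisons share libraries and are not independent of each other. By path over the 3 times, 17 genes were above day 0 at day 3 and below it at day 5, 12 were below it at both times, 11 were above it at both, and 0 were below and then above. The shares of all genes on these paths are not given here, so the counts do not set the 40 apart. They also rest on the scaling: at day 3, 25 were below day 0 with library totals and 33 with the authors' TPM.

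**Figure D2:**
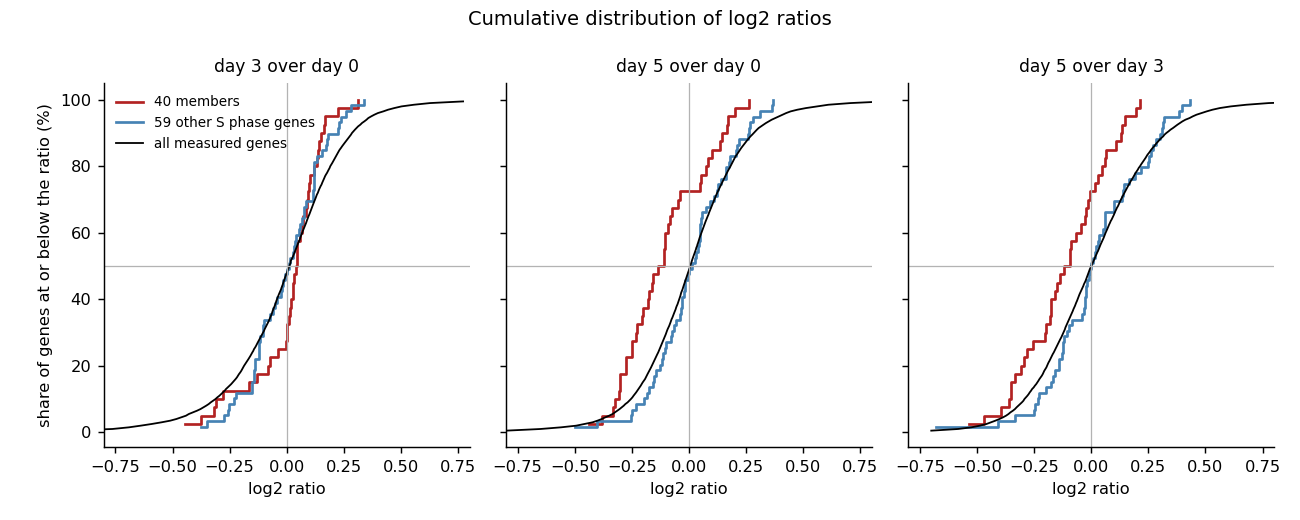
Cumulative share of genes (vertical axis, percent) at or below each log2 ratio (horizontal axis) for the 40 genes (red), 59 other S phase genes (blue) and all 12593 measured genes (black), in 3 panels for the 3 comparisons. At day 5 over day 0 and day 5 over day 3 the red line runs left of the black one, crossing 50% at -0.12 and -0.11, while the blue line stays near the black.

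None of the licensing genes passed the 0.32 mark at day 5 over day 0, where 5.15% of all genes were lower by it. The ratio was below 1 for 7 of 10, where 48.8% of all genes were below, and the 7 were the 6 subunits of the MCM ring and CDT1. MCM5 had 256, 265 and 208 CPM at day 0, day 3 and day 5. Its day 5 over day 0 log2 ratio was -0.30 (interval -0.36 to -0.25) and its day 5 over day 3 ratio -0.35 (-0.40 to -0.30), so the difference lay between day 3 and day 5. The day 5 over day 0 log2 ratios of the other ring subunits ran between -0.21 for MCM2 and -0.04 for MCM6, whose interval of -0.11 to 0.03 holds 0. The loaders CDC6 and CDT1 parted. CDC6, an ATPase that works with the origin recognition complex, had 172, 185 and 183 CPM, and its day 5 over day 0 log2 ratio was 0.08 (0.02 to 0.15). CDT1, which brings the ring to the origin and is destroyed in S phase, had 75.6, 77.2 and 62.5 CPM, and its ratio was -0.27 (-0.37 to -0.17). ORC6, a subunit of the origin recognition complex, stood at the other end from MCM5 with 55.2, 56.9 and 66.1 CPM and a ratio of 0.26 (0.15 to 0.37), the highest of the 40; ORC1 was at 0.05 (-0.08 to 0.18).

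The helicase activation genes held the lowest values at day 3. MCM10, which binds the loaded ring and is needed for it to unwind DNA, had 1703, 1235 and 1739 reads, or 78.8, 57.8 and 66.3 CPM. Its log2 ratio was -0.45 (-0.55 to -0.34) at day 3 over day 0 and -0.25 (-0.35 to -0.15) at day 5 over day 0, so in total reads it was the gene of the 40 furthest below day 0 at day 3, and its day 5 over day 3 ratio was 0.20 (0.09 to 0.30). In uniquely placed reads GINS4, at -0.63, lay further below day 0 at day 3 than MCM10, at -0.45. GINS4, a subunit of the GINS complex, had 44.7, 34.4 and 34.3 CPM, and its ratio was -0.38 at both times (-0.52 to -0.24 at day 3 and -0.51 to -0.25 at day 5). Only 28.2% of its reads were uniquely placed, so reads shared with other loci may enter this value; in uniquely placed reads its ratio was -0.63 at both times (-0.90 to -0.37 at day 3 and -0.89 to -0.39 at day 5). GINS3, of the same complex, went the other way at day 3, with 24.2, 30.0 and 27.3 CPM and ratios of 0.31 (0.14 to 0.48) and 0.17 (0.01 to 0.34). The 4 GINS subunits thus had day 5 over day 0 ratios between -0.38 and 0.17 although their proteins work as 1 complex. CDC45, which joins the ring and GINS in the active helicase, had 82.9, 88.1 and 67.0 CPM, with 0.09 (-0.01 to 0.18) at day 3 over day 0 and -0.31 (-0.40 to -0.21) at day 5 over day 0; its value at day 5 over day 3 was -0.40 (-0.49 to -0.30).

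PCNA, the ring that tethers polymerases to DNA, had 7109, 7697 and 7372 reads, which at these depths are 329, 360 and 281 CPM. Its log2 ratio was 0.13 (0.08 to 0.18) at day 3 over day 0, -0.23 (-0.28 to -0.18) at day 5 over day 0 and -0.36 (-0.41 to -0.31) at day 5 over day 3. The subunits of the clamp loader RFC did not follow it as a group. RFC4 was at 43.2, 48.3 and 47.5 CPM with a day 5 over day 0 ratio of 0.14 (0.01 to 0.26), RFC5 was at 0.07 (-0.02 to 0.17), RFC2 at -0.14 (-0.22 to -0.05) and RFC3 at -0.20 (-0.29 to -0.12). Of RFC3's reads 40.6% were intronic, the highest share among the 40 genes; in exon reads alone its ratio was -0.26 (-0.37 to -0.14).

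None of the polymerase and primase genes passed the 0.32 mark at day 5 over day 0. The ratio was below 1 for 6 of 7, where 48.8% of all genes were below, and the intervals of PRIM1 (-0.27 to 0.05) and POLD3 (-0.23 to 0.05) hold 0. POLD1, the catalytic subunit of polymerase δ, had 135, 141 and 112 CPM and a day 5 over day 3 log2 ratio of -0.33 (-0.41 to -0.26), with -0.28 (-0.35 to -0.20) against day 0. POLE, the catalytic subunit of polymerase ε on the leading strand, was already lower at day 3, at -0.28 (-0.34 to -0.22), and stayed at -0.25 (-0.31 to -0.19) at day 5. POLA2, the accessory subunit of polymerase α, likewise had 23.9, 19.2 and 19.4 CPM and ratios of -0.32 (-0.51 to -0.13) and -0.30 (-0.48 to -0.12). With length and GC trends removed, POLE was at -0.09 at day 3 and -0.10 at day 5 over day 0, POLA2 at -0.30 and -0.26, and POLD1 at 0.04 and -0.13. POLE2, the accessory subunit of polymerase ε, was the exception with 42.0, 44.0 and 48.2 CPM and a day 5 over day 0 ratio of 0.20 (0.08 to 0.32), which became 0.02 once the length and GC trends were removed.

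The pair that finishes Okazaki fragments moved little at day 5 over day 0. FEN1, the flap nuclease, had 209, 231 and 194 CPM and a day 5 over day 0 log2 ratio of -0.11 (-0.16 to -0.05); just 17.7% of its reads were uniquely placed, and in those the ratio was -0.11 (-0.25 to 0.03). LIG1, the ligase that seals the nicks, had 84.8, 89.9 and 78.5 CPM and a ratio of -0.11 (-0.20 to -0.02). At day 5 over day 3 FEN1 was at -0.25 (-0.31 to -0.20) and LIG1 at -0.20 (-0.29 to -0.11). These became -0.12 and -0.08 once length and GC trends were removed.

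Of the 5 nucleotide synthesis genes, TYMS and TK1 were lower at day 5 over day 0 by the 0.32 mark, where 5.15% of all genes were, and RRM1, RRM2 and DUT did not pass it. Both calls sit near the mark: TK1 was at -0.27 with length and GC trends removed, and TYMS at -0.317 with library totals. TK1, which salvages thymidine, had 5062, 5504 and 4885 reads, or 234, 258 and 186 CPM. Its log2 ratio was 0.14 (0.08 to 0.19) at day 3 over day 0, -0.33 (-0.39 to -0.28) at day 5 over day 0 and -0.47 (-0.53 to -0.41) at day 5 over day 3. TYMS, which makes dTMP from dUMP, had 355, 362 and 283 CPM, and its ratio was -0.32 (-0.37 to -0.28) at day 5 over day 0, or -0.40 (-0.46 to -0.35) in the uniquely placed reads. TK1 stood at 0.79 and TYMS at 0.80 of the day 0 level. RRM2, the regulated small subunit of ribonucleotide reductase, had 402, 405 and 444 CPM and a ratio of 0.14 (0.10 to 0.18), but 14.4% of its reads were uniquely placed and in those the ratio was -0.07 (-0.18 to 0.04). RRM1, the large subunit, was at -0.05 (-0.10 to 0.01). DUT, which removes dUTP, had 148, 150 and 166 CPM and a ratio of 0.17 (0.10 to 0.23).

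In total reads, SLBP had the lowest day 5 over day 0 ratio of the 40 genes; in uniquely placed reads GINS4, at -0.63, was below SLBP, at -0.42. SLBP encodes the protein that binds the stem-loop at the end of replication-dependent histone mRNAs, and it lies at chr4:1692800-1712555 on the minus strand (GRCh38). It had 3547, 3744 and 3179 reads, or 164, 175 and 121 CPM. Its log2 ratio was 0.09 (0.03 to 0.16) at day 3 over day 0, -0.44 (-0.51 to -0.37) at day 5 over day 0 and -0.53 (-0.60 to -0.47) at day 5 over day 3, and with the trends removed the values against day 0 and day 3 were -0.48 and -0.46. At day 5 it thus stood at 0.74 of its day 0 level. UHRF1, which guides maintenance methylation to new DNA, had 388, 366 and 330 CPM and a day 5 over day 0 ratio of -0.23 (-0.28 to -0.19).

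None of the regulators of S phase entry passed the 0.32 mark. E2F1, the activating factor of many of these genes, had 104, 98.8 and 92.7 CPM and a day 5 over day 0 log2 ratio of -0.16 (-0.25 to -0.08). Cyclin E2, CCNE2, had 27.4, 30.8 and 29.4 CPM and a ratio of 0.10 (-0.06 to 0.26). CCNE1, with 78, 90 and 90 reads, had a ratio of -0.07 (-0.53 to 0.38), an interval too wide to tell a difference of 0.32 in either direction from none.

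**Figure D3:**
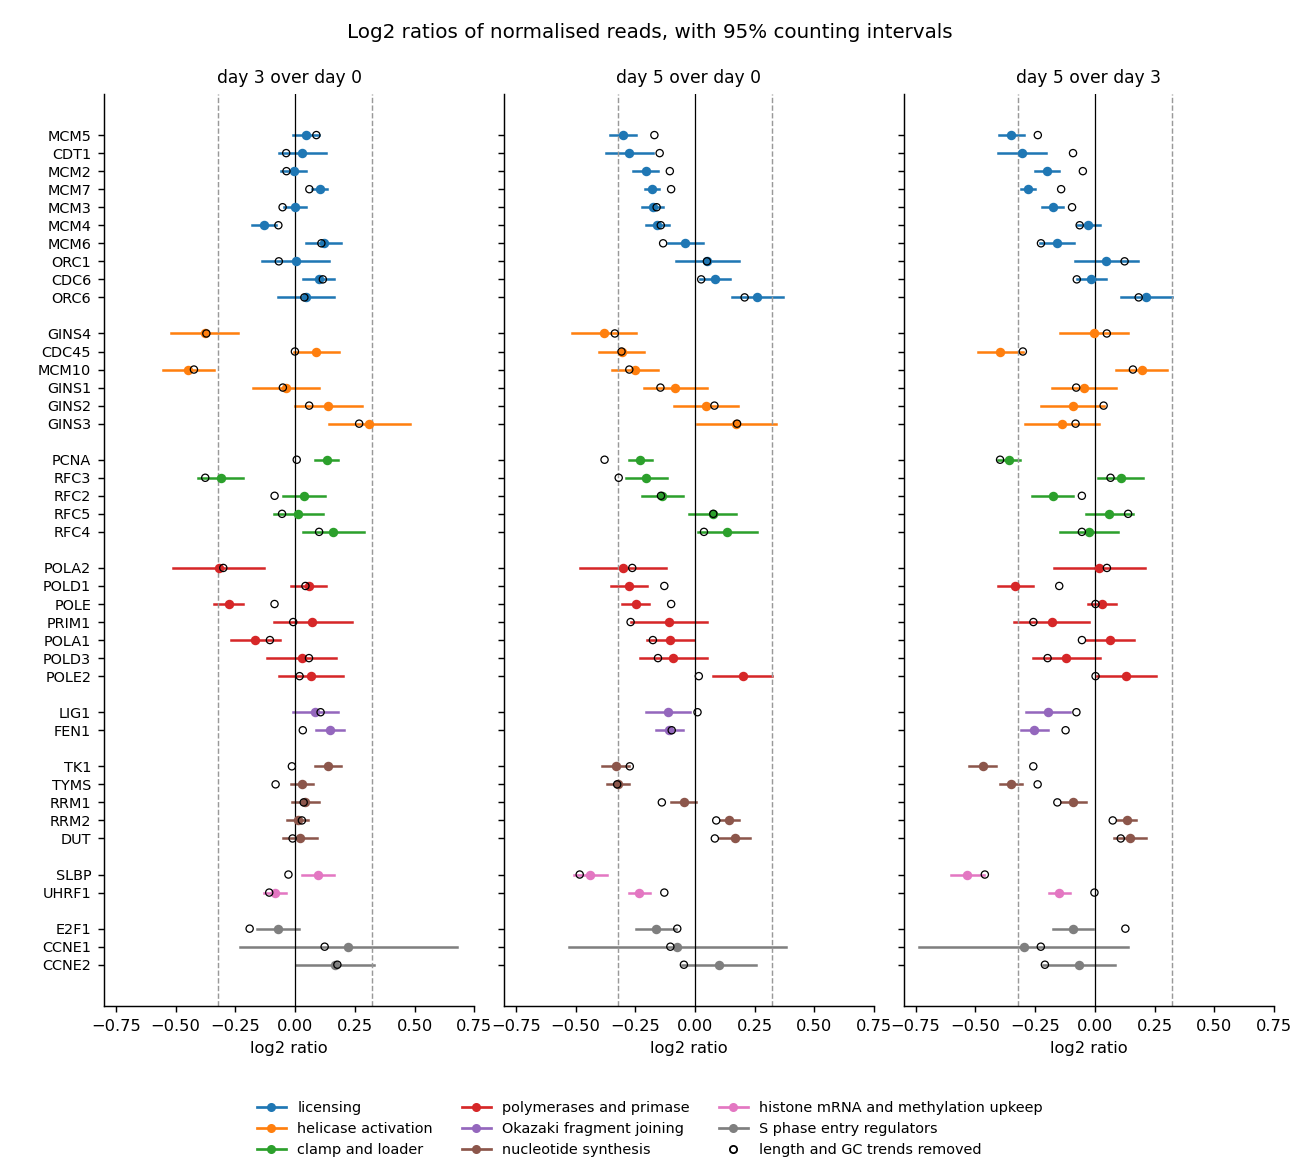
Log2 ratio (horizontal axis) of each of the 40 genes with its 95% counting interval, coloured by role group, in 3 panels for the 3 comparisons; dashed lines stand at 0.32 either side of 0 and small open circles the ratio with length and GC trends removed. MCM10 and GINS4 lie beyond the left dashed line in the first panel, SLBP, GINS4, TK1 and TYMS in the second, and no point lies beyond the right one.

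Set side by side at day 5 against day 0, licensing, polymerase and nucleotide synthesis genes had different medians and overlapping ranges. The medians were -0.17 for licensing, -0.11 for polymerases and primase and -0.05 for nucleotide synthesis. The log2 ratios of summed reads were -0.15 (-0.17 to -0.13), -0.18 (-0.22 to -0.15) and -0.07 (-0.09 to -0.05). In licensing the summed level was 2239 CPM at day 5 against 2487 CPM at day 0, in the polymerases 500.4 against 567.5 CPM and in nucleotide synthesis 1313 against 1380 CPM. Sums follow the most abundant genes, MCM7 in the first group, POLE in the second and RRM2 and TYMS in the last. The groups overlapped in their single ratios, with licensing between -0.30 and 0.26, polymerases between -0.30 and 0.20 and nucleotide synthesis between -0.33 and 0.17. With the trends removed the nucleotide synthesis median was -0.14, so that the order of the groups was not kept. At day 3 over day 0 the sum of the polymerase group was at -0.11 (-0.15 to -0.08), with POLE, POLA1 and POLA2 below 1, while licensing was at 0.04 (0.02 to 0.06) and nucleotide synthesis at 0.04 (0.02 to 0.07). Those 3 day 3 values shift with the scaling. The medians of licensing and nucleotide synthesis were -0.03 and -0.04 with library totals. With TMM the 3 day 3 medians hardly differed, at 0.03 for polymerases, with 4 of 7 above 1, 0.04 for licensing and 0.03 for nucleotide synthesis. With the trends removed they were -0.008, 0.001 and -0.011. POLE held 4901 of the 12262 polymerase group reads at day 0, and its day 3 ratio went from -0.28 to -0.09 with the trends removed.

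Ratios at day 5 moved with the base composition of the transcripts. Across the 40 genes the Spearman correlation of the day 5 over day 0 log2 ratio with GC content was -0.57, and across 12487 measured genes with both properties it was -0.42; at day 5 over day 3 the values were -0.49 and -0.52. Genes share libraries and are not independent replicates, so these are descriptions. The 20 of the 40 genes above the median GC content of 50.5% had a median day 5 over day 0 ratio of -0.22, and the 20 at or below it -0.06. After removal of the length and GC trends fitted over all genes, the medians were -0.13 and -0.14, and the median of all 40 was -0.13, with 29 below 1 where 48.4% of all genes were. Day 3 over day 0 ratios moved with the exon length given for each gene, at a Spearman correlation of -0.45 across the 40 genes and -0.38 across all genes. With the trends removed, MCM5 went to -0.17 and CDT1 to -0.15 at day 5 over day 0, and PCNA to -0.38.

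**Figure D4:**
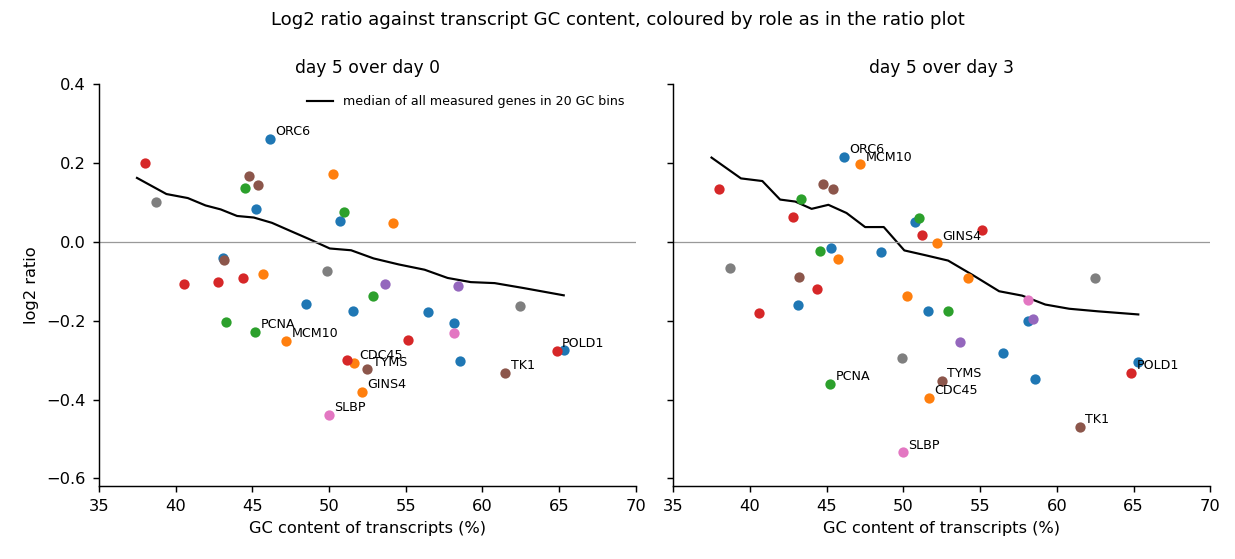
Log2 ratio (vertical axis) of each of the 40 genes against the GC content of its transcripts in percent (horizontal axis), coloured by role, for day 5 over day 0 and day 5 over day 3; the line joins medians of all measured genes in 20 GC bins. Both the points and the line run downwards to the right, and SLBP, CDC45, PCNA and TYMS lie well below the line at their GC content.

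Intron reads, which come mostly from unspliced RNA, were few for these genes: 4478, 3547 and 5028 over the 40 at day 0, day 3 and day 5, or 3.26%, 2.58% and 3.33% of their reads. Of the 36 genes with a mean of at least 20 intron reads, 33 were below day 0 at day 3, with a median log2 ratio of -0.34; of all 9212 genes with that many, 76.8% were below, with a median of -0.28. At day 5 over day 0, 24 of the 36 were below 1 with a median of -0.11, beside 53.2% and -0.03 for all genes. The interval lay below 1 for 4, SLBP, RFC3, POLE and POLD1, and above 1 for CCNE2; the shares of all genes were 11.2% and 7.70%. SLBP had 121, 100 and 92 intron reads and a day 5 over day 0 ratio of -0.67 (-1.08 to -0.27), the same direction as its total reads. MCM10 had 66, 35 and 81 intron reads, a day 3 over day 0 ratio of -0.89 (-1.53 to -0.29) and a day 5 over day 0 ratio of 0.01 (-0.47 to 0.51), so it was lowest at day 3 in intron reads as in total reads. CCNE2, by contrast, had 37, 40 and 76 intron reads and 0.75 (0.17 to 1.37) at day 5 over day 0, where its total reads were at 0.10. Its gene body overlaps INTS8 and NDUFAF6 on the opposite strand, so these intron reads cannot be told apart from reads of those genes. At day 5 over day 3, 7 of the 36 were below 1, with a median of 0.20. Of all 9212 genes, 2302 were below, with a median of 0.26. The interval lay above 1 for 11 of the 36 and below 1 for 0, beside 2577 and 277 of all. Among the genes called lower there in total reads, SLBP (-0.42) and PCNA (-0.16) were below 1 in intron reads. MCM5 (0.72, 0.10 to 1.37), TYMS (0.40), POLD1 (0.28), TK1 (0.21) and CDC45 (0.03) were above 1. Among them all, only MCM5 had an interval excluding 1.

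Genes with and without the promoter matches shown above overlapped in their ratios. At day 5 over day 0 the 19 genes with an E2F-type match had a median log2 ratio of -0.18 and a range of -0.32 to 0.20, and the 16 genes with a window and no match had a median of -0.09 and a range of -0.44 to 0.26. SLBP, TK1, MCM10, CDC45 and POLD1 had no match in their windows, while TYMS and PCNA had 1 each.

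A second list held 60 S phase genes, none of them among the 40. Of these, 59 were measured, and CDKN2A had 0 reads in every library. Their median was 0.01 at day 3 over day 0, 0.01 at day 5 over day 0 and 0.00 at day 5 over day 3, equal to or within 0.01 of the medians of all genes. With length and GC trends removed, their median at day 5 over day 0 was -0.05 with 57.6% below 1, beside 0.01 and 48.4% for all genes. At day 5 over day 0, 2 were higher by the 0.32 mark, or 3.39% beside 6.56% of all genes: CDC7, the kinase that fires origins, with 50.9 CPM at day 5 against 39.5 CPM at day 0 (log2 ratio 0.36, 0.24 to 0.49), and DCK, which salvages deoxycytidine, with 54.3 CPM against 42.0 CPM (0.37, 0.25 to 0.49). Lower were 2, or 3.39% beside 5.15% of all genes: CHTF18, of an alternative clamp loader, with 76.0 CPM against 100.5 CPM (-0.40, -0.49 to -0.31), and POLD4, the small subunit of polymerase δ, with 13.5 CPM against 19.02 CPM (-0.50, -0.71 to -0.29). With the trends removed, CDC7 was at 0.26, DCK at 0.18 and CHTF18 at -0.23, and of the named genes only POLD4 still passed the mark. A direct test of the 40 against this list was not made. Across 25 genes of G2 and mitosis the medians were 0.06 at day 3 over day 0 and -0.03 at day 5 over day 0, and 0.03 and -0.09 with the trends removed. At day 5 over day 0, 14 of the 25 were below 1. With the trends removed 21 were, or 84%, beside 48.4% of all genes. None passed the 0.32 mark there. At day 5 over day 3 their median was -0.07, with 18 below 1, or 72%, beside 49.9% of all genes. With the trends removed 22 were below 1 there. By the 0.32 mark 2 were lower there, or 8% beside 6.90% of all genes. A shift below 1 was thus not particular to the 40 genes.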

How the data were processed

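RNAiso Plus was used for extraction and a SMARTer mRNA kit for the libraries, per the labels' protocols. Per the file headers, the deposited tables give for each gene read counts (total, uniquely placed, exon and intron) and TPM computed by the authors. How reads were aligned and counted, and whether by strand, is not given in the sources used here. Per the submitters' processing notes the build is mm10, a mouse build, but all gene identifiers are human Ensembl ones; 56577 of 57980 found in GENCODE 29 (97.6%) share its GRCh38 start and end, as do 39 of the 40 genes. The 3 sample columns of a series-wide table were not used.

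Counts were scaled by TMM (edgeR 4.0.16, R 4.3.3), with a prior count of 0.5 in log2 ratios and 95% intervals of the ratio by the exact conditional (Clopper-Pearson) method. Genes with a mean of 50 reads or more were counted as lower or higher at a log2 ratio of at least 0.32 in size with an interval excluding 1. The ratio scripts (pandas 2.3.3, numpy 2.4.6, statsmodels 0.14.6 and scipy 1.17.1 in Python 3.11.15) were tested on simulated data. Length and GC trends were removed by lowess (span 0.3, 3 rounds) over 12487 genes. DESeq2 1.42.0 gave alternative size factors, and 13 alternatives in all were run. A count of 3 reads is 0.139, 0.140 and 0.114 CPM at day 0, day 3 and day 5. Named with their values are the genes past that mark in any comparison, the highest and lowest of each role group at day 5 over day 0, and PCNA, CDC6, CDT1, CCNE1, CCNE2, E2F1, RRM2 and TYMS. Others were named, after their values were seen, where a contrast within a complex or with a processing step rests on them. The genes, their lists and the tests were chosen with earlier results of these data known.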

Additional observations from a re-analysis of the deposited data

How the results depend on the processing

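No paired analysis was possible because each time has 1 library and the labels carry no replicate numbers. Leaving out a library was likewise not possible. Of 351 values recomputed under 13 alternatives for the lists and role groups, 308 stayed close to the reported one and 43 moved. Medians took both signs across the alternatives at day 3 over day 0 for the 40 genes, the second list and the licensing, polymerase and nucleotide synthesis groups, at day 5 over day 0 for the second list, and at day 5 over day 3 for the second list, the polymerases and nucleotide synthesis. The median of the 40 genes at day 5 over day 0 stayed between -0.14 and -0.12 under every alternative.

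With library totals in place of TMM, lower genes of the 40 numbered 5 at day 3 over day 0 and 2 at day 5 over day 3; the licensing medians there were -0.029 and -0.093, and the nucleotide synthesis medians -0.039 and -0.016. Of the second S phase list, 0 were higher and 4 lower at day 3 over day 0, and 12 higher at day 5 over day 3. All genes moved with this scaling too, to medians of -0.057 at day 3 over day 0 and 0.075 at day 5 over day 3. The shares of all genes called with library totals or TPM are not given here, so these counts do not set the lists apart. With the authors' TPM, the median of the 40 was -0.079 with 5 lower at day 3 over day 0, and -0.011 with 1 higher and 2 lower at day 5 over day 3. The licensing medians were then -0.088 and -0.057 and the nucleotide synthesis medians -0.098 and 0.031. The second list had a median of -0.10 with 0 higher and 8 lower, and of 0.11 with 11 higher and 1 lower. The medians of all genes were then -0.082 and 0.088.

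With length and GC trends removed, 2 of the 40 were lower at day 5 over day 3, where the licensing median was -0.084 and the nucleotide synthesis median -0.16; the nucleotide synthesis median was -0.14 at day 5 over day 0. The second list then had 0 higher and 0 lower at day 3 over day 0, 0 higher and 1 lower at day 5 over day 0, and 0 higher and 1 lower at day 5 over day 3. Of all genes, 5.00% were then higher and 6.28% lower at day 3 over day 0, and 5.00% and 3.96% at day 5 over day 0. At day 5 over day 3 the shares were 6.01% and 3.04%. In uniquely placed reads, 1 of the 40 (GINS3) was higher at day 3 over day 0, the nucleotide synthesis median at day 5 over day 3 was -0.15, and 6 of the second list were higher there. In exon reads the second list had 0 higher at day 3 over day 0 and 7 higher at day 5 over day 3. Among genes with at least 90% uniquely placed reads, the 40 gave 1 lower at day 3 over day 0 and 2 at day 5 over day 0, and the second list 1 higher and 1 lower at day 5 over day 0; fewer genes were counted there. The cause of the other shifts was not tested. Shares of all genes called in uniquely placed reads, in exon reads and under the 90% rule are not given here.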

Other observations

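Of 90 replication-dependent histone genes, whose mRNAs lack a poly(A) tail in cycling cells, 19 reached a mean of 50 reads. Of all 58243 gene rows 12593 did, a similar share, so this count does not set the histone genes apart. HIST1H1C, which encodes linker histone H1.2, was higher at day 5 than at day 0 (log2 ratio 0.37, 0.33 to 0.41), and HIST1H2BC lower (-0.55, -0.75 to -0.35). In all, 4 were higher and 3 lower by the 0.32 mark at day 5 over day 0, beside 6.56% and 5.15% of all genes, and their median was 0.03. The 2 genes were chosen for mention after their values were seen.

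At day 5 over day 3, 3 of the second S phase list's 59 measured genes were higher and 3 lower by the 0.32 mark, or 5.08% each, beside 9.01% and 6.90% of all genes. RB1, which holds E2F factors in check, had 103 CPM at day 5 against 76.5 CPM at day 3 (log2 ratio 0.43, 0.34 to 0.52), and ATAD5, which unloads PCNA, had 33.5 against 25.4 CPM (0.40, 0.24 to 0.56). RRM2B, the reductase subunit induced by p53, had 37.5 against 28.7 CPM (0.38, 0.24 to 0.53). POLD2 had 154 against 204 CPM (-0.41, -0.47 to -0.35), RNASEH2A 61.6 against 77.6 CPM (-0.33, -0.43 to -0.23) and POLD4 13.5 against 21.5 CPM (-0.68, -0.88 to -0.48). With length and GC trends removed, the count in the second list at day 5 over day 3 was 0 higher and 1 lower, beside 6.01% and 3.04% of all genes. At day 3 over day 0, 2 of the second list were lower by the 0.32 mark, or 3.39% beside 8.08% of all genes. They were CDK6, a G1 kinase, at -0.38 (-0.47 to -0.29) and E2F7, a repressor of the E2F family, at -0.35 (-0.45 to -0.25). Higher was 1, POLE4 at 0.34 (0.21 to 0.47), or 1.69% beside 6.27% of all genes. With the trends removed none of these passed the mark, with CDK6 at -0.21, E2F7 at -0.29 and POLE4 at 0.22.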
